A study of Mus musculus with 4 samples.

Results

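The genes of mitosis and of the spindle were followed in RAW264.7 macrophages, a mouse cell line, under 4 conditions. The list held 41 genes chosen by name, from the cyclins that start mitosis to the proteins that divide the cell, and 40 of them were measured, out of 18194 genes with a probe set of their own. The remaining one, Ccnb1, was not analysed here. Cells in normoxia are called NC and cells in hypoxia HC, and cells that also received the cytokine IL6 are called NC+IL6 and HC+IL6. All cells were RAW264.7 grown in serum-containing medium and kept in their condition for 4 days, hypoxia was 1% oxygen and IL6 was given at 25 ng/ml. Each condition was hybridized to 1 Affymetrix expression array, so no difference has a replicate check and no p-value is given.

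In a dividing cell, the mitotic genes are switched on together late in the cycle, and several of their proteins are destroyed as the cell leaves mitosis. Cyclins A and B activate the kinase CDK1, which starts mitosis. Kinesins and other microtubule proteins build the spindle, kinetochores tie the chromosomes to it, and a checkpoint holds the cell until every chromosome is attached. In cycling cells the level of these transcripts follows the share of cells in late cycle. In RNA from a whole culture, fewer cells in mitosis and less of each transcript per cell cannot be told apart. RAW264.7 cells divide continuously in culture, unlike most macrophages of tissues.

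The values are log2 signals from MAS5, which combines the short probes of a probe set into 1 signal. On each array a background floor was taken from 72 genes restricted to other tissues, as the 95th percentile of their 122 probe sets. It lay between 6.13 and 6.72 on the log2 scale, and between 39.6% and 42.6% of all 45101 probe sets lay above it. All 15 macrophage markers were above the floor on every array, while no marker of T cells, B cells or fibroblasts was above it on any array. The epithelial marker Epcam was above the floor in NC, at 7.18, and the endothelial marker Kdr in HC+IL6, at 6.55. Targets of the hypoxia-inducible factors had higher signals in HC than in NC cells, with 11 of 15 at 2-fold or more (3.94% of all genes) and a median log2 ratio of 1.497. They were also higher in NC+IL6 than in NC macrophages, with 8 of 15 at 2-fold or more (3.46%) and a median of 1.23. In HC+IL6 compared with NC+IL6, 7 of 15 were (3.59%), with a median of 0.93. In HC+IL6 compared with HC, 4 of 15 were (2.4%) and 4 were below 0, with a median of 0.42. Beta-actin gave 1.41 to 1.73 times more signal at its 3' than at its 5' end, a ratio that grows as RNA degrades, and this ratio was lower on both arrays with IL6 than on its partner without. It was higher on both hypoxia arrays, at 1.54 in NC against 1.73 in HC and at 1.41 in NC+IL6 against 1.62 in HC+IL6. For Gapdh the ratio was 0.93 on both normoxia arrays, 0.87 in HC and 0.88 in HC+IL6. These ratios moved with hypoxia and, for actin, with IL6, and their part in the results was not tested. All 40 mitotic genes were above the floor on all 4 arrays. A gene was called higher or lower where 2 arrays differed by 2-fold or more, and differences of 1.5-fold or more were counted as well, since few mitotic genes reached 2-fold.

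IL6 was accompanied by lower signals of mitotic genes in both oxygen conditions. In NC+IL6 compared with NC macrophages, all 40 genes had a log2 ratio below 0, against 55.2% of all 9899 genes above the floor. Their median log2 ratio was -0.51, against -0.05 for all genes. Of the 40 genes, 17 were lower by 1.5-fold or more (7.32% of all genes) and 1, Cenpf, was lower by 2-fold or more (1.29%). In HC+IL6 compared with HC macrophages, again all 40 had a log2 ratio below 0 (54% of all genes), with a median of -0.50 against -0.03. Here 16 were lower by 1.5-fold or more (8.6%) and 2, Nusap1 and Kif23, by 2-fold or more (1.98%). None was above 0 in either comparison, where 44.8% and 46% of all genes were. Among all genes 8.51% and 7.68% were higher by 1.5-fold and 3.46% and 2.4% by 2-fold. These 2 comparisons share no array, and 12 of the 40 genes were lower by 1.5-fold or more in both, against 3.08% of all genes. No mitotic gene was above 0 in both, where 31.3% of all genes were, or higher by 1.5-fold in both, where 4.23% were. Across the 40 genes their log2 ratios correlated at r = 0.72 (Spearman's rho 0.68), and across all 9460 genes measured in both at r = 0.63. Genes are not independent replicates, and each point shares its probe set between both axes. The highest of the 4 signals belonged to an array without IL6 for every one of the 40 genes, to NC for 28 and to HC for 12. The lowest belonged to HC+IL6 for 30 and to NC+IL6 for 10. Among all 8753 genes above the floor on every array, NC was highest for 26.3% and HC for 30.4%, and HC+IL6 was lowest for 24.7% and NC+IL6 for 28.3%.

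**Figure D1:**
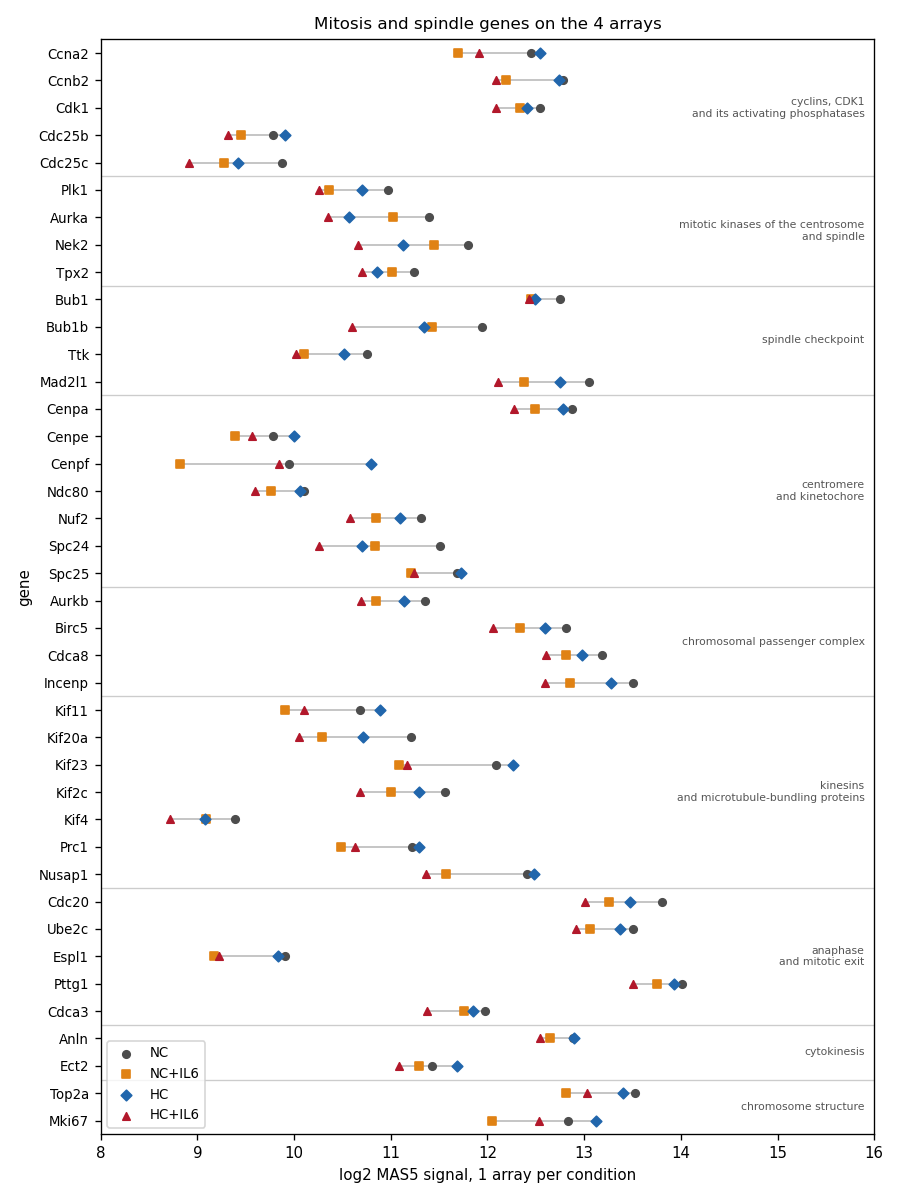
Log2 MAS5 signal (x axis) of 40 mitosis and spindle genes (y axis, grouped by role) in NC, NC+IL6, HC and HC+IL6 macrophages, 1 array each, with a grey line from the lowest to the highest array. In every gene the orange squares and red triangles of the IL6 arrays lie left of the grey circle or blue diamond of the highest array, and signals of different genes are not comparable, since each has its own probes.

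Ccna2, which encodes the cyclin A of S phase and early mitosis, had log2 signals of 12.45 (NC), 11.70 (NC+IL6), 12.54 (HC) and 11.91 (HC+IL6). By this probe set it was 1.68-fold lower with IL6 in normoxia and 1.54-fold lower in hypoxia, with both IL6 arrays below both others. A second Ccna2 probe set, nearly as bright, had 12.49, 12.02, 11.89 and 11.67, with IL6 log2 ratios of -0.47 and -0.21. In that one NC+IL6 lay above HC. Ccnb2, a cyclin B, had 12.79, 12.19, 12.74 and 12.09 in the same order, and was 1.51-fold and 1.57-fold lower with IL6. Cdk1, the kinase that these cyclins activate, had 12.55, 12.34, 12.41 and 12.09. Its IL6 log2 ratios of -0.21 and -0.32 were smaller than those of its cyclins at their brightest probe sets. The phosphatases that remove the inhibitory phosphates of CDK1, Cdc25b and Cdc25c, had log2 ratios of -0.33 and -0.60 with IL6 in normoxia and of -0.60 and -0.50 in hypoxia.

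The kinesins and microtubule-bundling proteins were the role with the lowest median with IL6 among those with more than 2 members, at -0.77 in normoxia and -0.66 in hypoxia. Of these 7 genes, 5 were lower by 1.5-fold or more in normoxia (7.32% of all genes) and 6 in hypoxia (8.6%). Of all 40 mitotic genes, 17 and 16 were. Kif23, a kinesin that bundles microtubules at the centre of the dividing cell, had log2 signals of 12.08 (NC), 11.09 (NC+IL6), 12.26 (HC) and 11.16 (HC+IL6). With log2 ratios of -0.998 and -1.10 it lay just under and just over the 2-fold limit, and its second probe set above the floor had -0.90 and -0.86. Nusap1, which stabilizes spindle microtubules near the chromosomes, had 12.41, 11.57, 12.48 and 11.36, which is 1.79-fold and 2.17-fold lower with IL6. Both genes thus had 2 nearly equal signals without IL6 and lower ones with it, at either oxygen level. Kif20a, a kinesin needed for the final separation of the daughter cells, had 11.21, 10.29, 10.71 and 10.05. Kif11, the motor that pushes the spindle poles apart, had 10.68, 9.91, 10.89 and 10.10. Prc1, which crosslinks antiparallel microtubules, had 11.22, 10.48, 11.29 and 10.63. All of these had IL6 log2 ratios between -0.66 and -0.92. Kif2c and Kif4, a microtubule-depolymerizing kinesin and a kinesin bound to chromosomes, had -0.56 and -0.30 in normoxia and -0.61 and -0.37 in hypoxia.

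Among genes of the centromere and kinetochore, Cenpf, a large protein of the outer kinetochore, differed most between the arrays. Its log2 signals were 9.95 (NC), 8.82 (NC+IL6), 10.79 (HC) and 9.85 (HC+IL6). It was 2.18-fold lower with IL6 in normoxia and 1.92-fold lower in hypoxia, and its second probe set above the floor on all arrays had log2 ratios of -0.57 and -0.21. Its remaining probe set, under the floor in NC+IL6, had -0.51 in normoxia and 0.07 in hypoxia. Cenpe, a kinesin of the kinetochore, and Cenpa, the histone variant that marks the centromere, had -0.39 and -0.38 in normoxia. The NDC80 complex binds the spindle microtubules through 4 subunits, which are all on the list. In normoxia its genes Ndc80, Nuf2, Spc24 and Spc25 had IL6 log2 ratios of -0.34, -0.46, -0.68 and -0.47, and in hypoxia -0.47, -0.53, -0.45 and -0.49. All 4 subunits of this complex were thus lower with IL6 by similar amounts in hypoxia.

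Among genes of the spindle checkpoint, Mad2l1 and Ttk, which act in the signal that delays anaphase, had IL6 log2 ratios of -0.67 and -0.65 in normoxia and of -0.64 and -0.49 in hypoxia. Bub1b had -0.52 and -0.75. Bub1, a checkpoint kinase at the kinetochore, differed least of the 40 genes with IL6 in hypoxia, at -0.06, and had -0.30 in normoxia. The chromosomal passenger complex joins the kinase Aurkb to Birc5 (survivin), Cdca8 (borealin) and Incenp. Its members had -0.50, -0.47, -0.38 and -0.65 in normoxia and -0.45, -0.54, -0.37 and -0.68 in hypoxia. All 4 were lower with IL6 at either oxygen level.

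Plk1, a kinase that acts from entry into mitosis to its end, had log2 signals of 10.97 (NC), 10.36 (NC+IL6), 10.70 (HC) and 10.26 (HC+IL6). The kinases Aurka and Nek2 of the centrosome and the Aurka activator Tpx2 had IL6 log2 ratios of -0.37, -0.35 and -0.22 in normoxia and -0.21, -0.47 and -0.16 in hypoxia. In Nek2 a second, dimmer probe set had 0.43 in normoxia, the opposite direction, and -0.72 in hypoxia. For anaphase and exit from mitosis, Espl1, the protease separase that cuts cohesin, had 9.91, 9.17, 9.84 and 9.23 on the 4 arrays in the order NC, NC+IL6, HC and HC+IL6. Cdc20 and Ube2c, which help the anaphase-promoting complex mark its targets for destruction, had IL6 log2 ratios of -0.55 and -0.45 in normoxia and -0.47 and -0.46 in hypoxia. Pttg1 (securin), the inhibitor of separase, had -0.26 and -0.42, and Cdca3, which takes part in entry into mitosis, had -0.22 and -0.48. The cytokinesis genes Anln and Ect2 had -0.24 and -0.14 in normoxia, the latter being the value nearest to 0 of all 40 genes there, and -0.35 and -0.60 in hypoxia. Mki67, which coats mitotic chromosomes and is widely used as a marker of cycling cells, had 12.83, 12.04, 13.12 and 12.53. Top2a, the topoisomerase that untangles chromosomes, had 13.53, 12.81, 13.40 and 13.03. Mki67 and Top2a had IL6 log2 ratios of -0.79 and -0.72 in normoxia and of -0.59 and -0.38 in hypoxia.

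The probe sets of a gene mostly had the same direction with IL6. In 21 mitotic genes 2 or more probe sets were above the floor on all arrays, and in 20 of these, or 95.2%, every such probe set had the same sign in normoxia, against 61.1% of the 3847 genes measured in this way. In hypoxia it was also 20 of 21, against 58.3%. The exceptions were Nek2 in normoxia and Kif2c in hypoxia, where a dim probe set had 0.36. Of all 68 probe sets of the mitotic genes above the floor on every array, 67 had a log2 ratio below 0 in each of the comparisons with IL6. The pooled SD between probe sets of the same gene was 0.24 in normoxia and 0.27 in hypoxia for these genes, a spread between probe sets that says nothing of the spread between cultures. With the mean of a gene's probe sets in place of the brightest, 39 of 40 genes had a ratio below 0 in normoxia and 40 in hypoxia, with Nek2 at 0.04 as the exception.

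**Figure D2:**
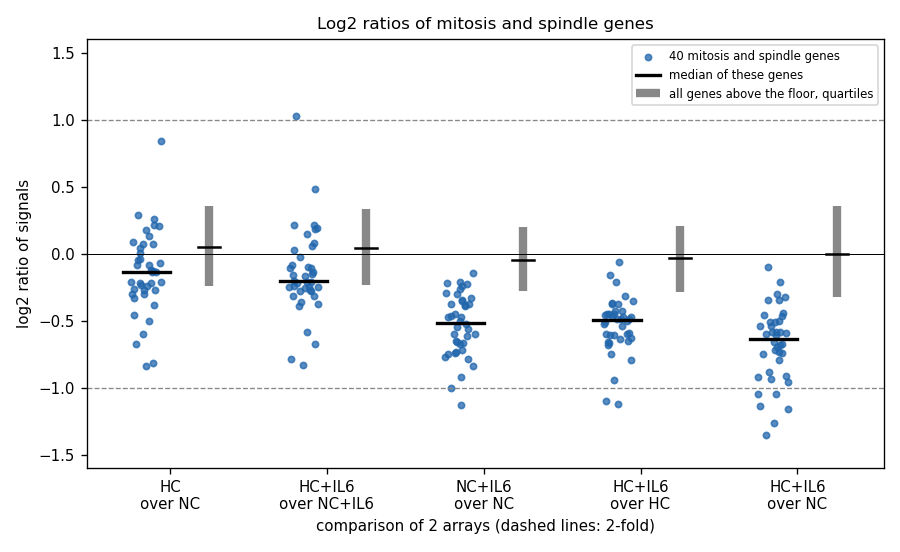
Log2 ratio of signals (y axis) of 40 mitosis and spindle genes (blue points, black bar at the median) in 5 comparisons of 2 arrays (x axis), beside the quartiles and median of all genes above the floor (grey bar, black tick), with dashed lines at 2-fold. The medians of the mitotic genes are -0.14 and -0.21 for hypoxia, -0.51 and -0.50 for IL6 and -0.63 for both together.

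Hypoxia was accompanied by lower signals of some mitotic genes and higher signals of others. In HC compared with NC macrophages, 28 of the 40 genes had a log2 ratio below 0 (45.2% of all genes) and 12 above it (54.8%), with a median of -0.14 against 0.05 for all 9543 genes above the floor. In this comparison 4 genes were lower by 1.5-fold or more (6.84%), 1 was higher (13.3%), and none reached 2-fold, where 3.94% of all genes were higher and 1.06% lower. These counts take the brightest probe set of each gene, and a dimmer one of Anln had 1.25 where the brightest had 0.005. In HC+IL6 compared with NC+IL6 macrophages, 30 were below 0 (45.8%) and 10 above (54.2%), with a median of -0.21 against 0.04. Here 3 were lower by 1.5-fold or more (6.34%) and 1, Cenpf, was higher by 1.5-fold (12.5%) and also by 2-fold (3.59%), while none was lower by 2-fold (1.44%). The log2 ratio of Cenpf there was 1.03, and it fell short of 2-fold at 0.96 after quantile normalization and with equal medians, at 0.98 after cyclic loess and at 0.84 with its probe sets averaged. At 2-fold the split of all genes depended on the scaling, with 376 higher and 101 lower in HC and 361 and 145 in HC+IL6, against 260 and 180, and 217 and 213, after quantile normalization. The split around 0 in HC over NC moved as well, for the mitotic genes and for all genes. With equal medians 33 mitotic genes were below 0 and 7 above it, where 53.58% of all genes were below 0. With cyclic loess 25 were below and 15 above, against 51.40% of all genes below 0. After quantile normalization 26 were below and 14 above, against 53.03% of all genes below 0. Among genes of mean log2 signal 10 or more, 24 of 33 mitotic genes were below 0 in HC over NC and 26 in HC+IL6 over NC+IL6. Of all 4198 such genes, 55.1% and 54.0% were. By 1.5-fold or more, 4 and 3 of the 33 were lower, against 320 and 242 of the 4198, and 0 were higher each time, against 300 and 251. The 2 hypoxia comparisons share no array. Across the 40 genes their log2 ratios correlated at r = 0.86 (Spearman's rho 0.77), and across all 9377 genes measured in both at r = 0.63, where again genes are not independent replicates and share their probe sets. Of the 40 genes, 26 were below 0 in both (33.9% of all genes), 8 were above 0 in both (40.7%) and 6 had opposite signs (2378 of all 9377 genes).

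At the low end were Aurka, Nek2 and Bub1b, which were lower by 1.5-fold or more in both hypoxia comparisons, where 2.87% of all genes were. By its brightest probe set, Cenpf was the single gene higher by 1.5-fold or more in both (6.27%). Dimmer probe sets of Anln (1.25 and 0.68), Bub1 (0.81 and 0.77) and Tpx2 (0.69 and 0.59) were as well, where their brightest were not. Aurka, which organizes the poles of the spindle, had log2 signals of 11.40 (NC), 11.03 (NC+IL6), 10.56 (HC) and 10.36 (HC+IL6). It was 1.79-fold lower in hypoxia without IL6 and 1.59-fold lower with it. Nek2, which splits the centrosomes before mitosis, had 11.80, 11.45, 11.13 and 10.67, and its second probe set had hypoxia log2 ratios of -0.09 and -1.24. Bub1b, the checkpoint protein BubR1, had 11.95, 11.42, 11.35 and 10.60, and its second probe set had -0.51 and -0.46. Both hypoxia arrays lay below both normoxia arrays in each of these 3 genes. Spc24 had 11.51, 10.84, 10.70 and 10.25, with hypoxia log2 ratios of -0.81 and -0.58, the latter just under 1.5-fold. Its partner Spc25 in the same complex had 11.68, 11.21, 11.72 and 11.24, and differed little with oxygen, at 0.04 and 0.03.

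At the high end, Cenpf was 1.79-fold higher with hypoxia in the absence of IL6 and 2.04-fold higher in its presence. Its other probe sets had hypoxia log2 ratios of 0.38 and 0.19 without IL6 and of 0.74 and 0.76 with it, the same direction, although one of them was under the floor in NC+IL6. Mki67 had 0.29 and 0.49, Cenpe 0.22 and 0.18, and Kif11 0.21 and 0.19. Ccna2, Kif23, Prc1 and Spc25 were also above 0 in both, by at most 0.21 at their brightest probe sets. The other probe sets of Kif11 were below 0, at -0.02 and -0.25 without IL6 and at -0.06 and -0.09 with it. The second of Prc1 had -0.48 and -0.42. For Mki67, a single probe set was available. Unlike with IL6, probe sets of the same gene often differed in direction in hypoxia. All had the same sign in 12 of the 21 genes without IL6 (57.1%, against 61.3% of all such genes) and in 9 with IL6 (42.9% against 60.0%). A second probe set of Tpx2 had 0.69 and 0.59 where the brightest had -0.38 and -0.32, and one of Ccna2 had -0.60 and -0.35 where the brightest had 0.09 and 0.21. The pooled SD between probe sets of these genes was 0.38 and 0.40.

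**Figure D3:**
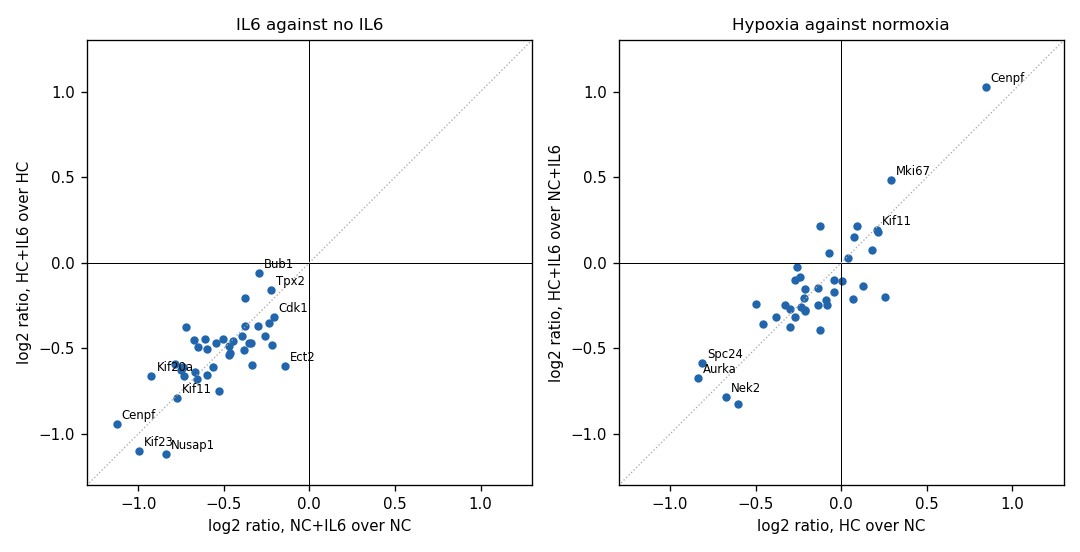
Log2 ratios of 40 mitosis and spindle genes for IL6 in hypoxia (y axis) against IL6 in normoxia (x axis) on the left, and for hypoxia with IL6 (y axis) against hypoxia without IL6 (x axis) on the right, with a dotted line where both are equal and names on some of the genes farthest from the centre. On the left all points lie below 0 on both axes, and on the right 26 lie below 0 on both and 8 above 0 on both, with Cenpf at 0.84 and 1.03.

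The IL6 log2 ratio was farther from 0 than the hypoxia ratio, both without and with the other treatment, in 32 of the 40 genes. Hypoxia had the larger ratio both times in 6 genes, Aurka, Nek2, Tpx2, Bub1b, Spc24 and Kif4. These comparisons share arrays and the shares over all genes were not counted, so the counts are a description. IL6 ratios in hypoxia minus those in normoxia lay between -0.46 for Ect2 and 0.34 for Top2a, with a median of -0.02, and without replicates that difference was not tested. With both treatments, in HC+IL6 compared with NC macrophages, all 40 genes were below 0 (49.9% of all genes) and none above it (50.1%), with a median of -0.63 against 0.00. Of all genes of mean log2 signal 10 or more, 57.5% were below 0. Of the 40 genes, 24 were lower by 1.5-fold or more (10.8%) and 6 by 2-fold or more (1.8%), while none was higher by 1.5-fold (14.9%) or by 2-fold (5.86%). At 2-fold all genes split into 576 higher and 177 lower, and after quantile normalization into 472 and 271. The 6 genes were Bub1b (2.55-fold), Spc24 (2.39-fold), Kif20a (2.24-fold), Nek2 (2.20-fold), Nusap1 (2.07-fold) and Aurka (2.06-fold). At the other end, Cenpf had 9.95 in NC and 9.85 in HC+IL6, a log2 ratio of -0.10, with a higher signal in hypoxia and a lower one with IL6. Mki67 had -0.30, and when probe sets were averaged 37 of the 40 genes were below 0. All these counts take the brightest probe set of each gene. In 14 of the 21 genes with 2 or more probe sets above the floor, all had the same sign. That is 66.7%, against 67.0% of all such genes. Dimmer probe sets of Bub1 and Anln, for example, had 0.55 and 0.45.

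The promoters of these genes are known for a pair of motifs. The cell cycle genes homology region (CHR) is bound by the MuvB complex, which represses mitotic genes in resting cells and activates them late in the cycle together with B-Myb and FoxM1. CCAAT boxes are bound by NF-Y. RefSeq promoters of 300 bases, from 250 before to 50 after the annotated start, were found for 34 of the 41 genes, in 36 windows. Both strands were searched for TTTGAA or TTCGAA as CHR and for CCAAT, where neither word contains the other, though a shared T allows them to overlap. CHR was found in 28 of the 36 windows, or 77.8%, against 19.2% of all 32851 promoters and 14.1% of those of genes above the floor. CCAAT was found in 28 as well, or 77.8%, against 37.4% and 37.8%. Both were found in 25, or 69.4%, against 7.52% and 5.54%. From the first base of a CCAAT box to that of a CHR downstream of it, the shortest distance was 20 to 40 bases in 14 windows, or 38.9%, against 0.93% and 0.85%, a spacing chosen after the positions were seen. An E2F site, searched as TTTGGCGC, TTTCCCGC, TTTCGCGC or TTTGCCGC, was found in 1 window, or 2.78%, against 2.26% of all promoters and 4.18% of those of genes above the floor. Birc5, Mad2l1, Nuf2, Nusap1 and Pttg1 held neither CHR nor CCAAT in this window. A match is a run of letters and not a measured site, and the arrays do not bear on binding.

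Stretches of 130 bases are printed for Cdk1, Ccnb2 and Cdc20, 3 regulators of mitosis, for Kif11, Kif23 and Cenpf, which were among the lowest with IL6, and for Nusap1, which was too but holds neither motif. They run 5′ to 3′ on the strand of the gene, from 110 bases before the RefSeq start to 20 bases after it, in the build GRCm38.p6, with CHR and CCAAT matches of either strand in capitals.
Cdk1, chr10:69352893-69353022, minus strand: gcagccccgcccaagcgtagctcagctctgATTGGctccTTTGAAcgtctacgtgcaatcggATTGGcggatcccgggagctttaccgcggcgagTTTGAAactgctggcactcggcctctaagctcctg
Ccnb2, chr9:70421535-70421664, minus strand: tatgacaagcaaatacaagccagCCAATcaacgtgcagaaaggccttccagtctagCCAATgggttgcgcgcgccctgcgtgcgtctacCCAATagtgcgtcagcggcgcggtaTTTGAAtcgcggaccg
Cdc20, chr4:118437324-118437453, minus strand: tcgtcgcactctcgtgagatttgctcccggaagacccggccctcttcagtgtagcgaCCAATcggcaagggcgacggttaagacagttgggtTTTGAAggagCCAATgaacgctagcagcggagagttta
Kif11, chr19:37376272-37376401, plus strand: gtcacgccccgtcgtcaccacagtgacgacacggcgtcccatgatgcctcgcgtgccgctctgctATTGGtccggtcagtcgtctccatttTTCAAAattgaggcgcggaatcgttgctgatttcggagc
Kif23, chr9:61946780-61946909, minus strand: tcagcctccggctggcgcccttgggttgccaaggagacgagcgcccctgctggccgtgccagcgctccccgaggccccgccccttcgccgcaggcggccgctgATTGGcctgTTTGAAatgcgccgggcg
Cenpf, chr1:189688067-189688196, minus strand: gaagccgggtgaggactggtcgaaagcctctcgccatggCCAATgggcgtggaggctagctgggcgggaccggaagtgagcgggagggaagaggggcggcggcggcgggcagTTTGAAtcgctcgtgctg
Nusap1, chr2:119618188-119618317, plus strand: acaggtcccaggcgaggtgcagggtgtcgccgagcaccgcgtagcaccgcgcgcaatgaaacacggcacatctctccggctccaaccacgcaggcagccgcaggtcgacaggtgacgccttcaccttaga

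Within these stretches 2 CCAAT boxes alternate with 2 CHR in Cdk1, a CHR lies between 2 CCAAT boxes in Cdc20, and 3 CCAAT boxes precede the CHR in Ccnb2. Counted from first base to first base, the CHR follows a CCAAT box by 25 bases in Ccnb2, 26 in Kif11, 9 in Kif23 and 73 in Cenpf. In Ccnb2, Kif23 and Cenpf the CHR lies just inside the transcript. Among measured genes, the 23 whose promoters held both motifs had a median IL6 log2 ratio of -0.52 in normoxia and -0.49 in hypoxia. The 10 that lacked at least 1 motif, of which 5 held neither, had -0.43 and -0.50. For hypoxia these medians were -0.12 and -0.10 in the 23 genes and -0.15 and -0.26 in the 10. Lower signals with IL6 were thus seen in genes with both motifs and in genes that lacked at least 1 of them.

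**Figure D4:**
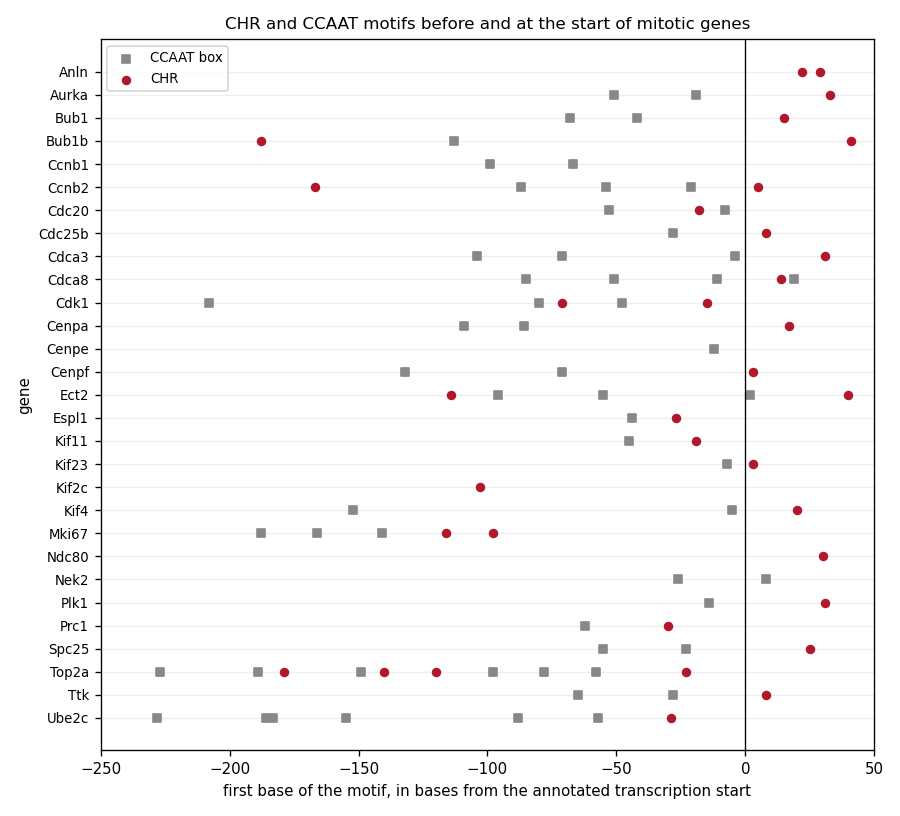
Position of the first base of CHR (red circles) and CCAAT (grey squares) matches on either strand, in bases from the annotated transcription start (x axis, black line), for 29 mitosis and spindle genes whose RefSeq promoter window of 300 bases holds a match (y axis, 1 window a gene). The red circles lie mostly within 50 bases of the start, with grey squares upstream of them.

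Most other genes of mitosis were also lower with IL6. On a list of further mitosis genes, 75 of 85 were above the floor, of which 66 were below 0 and 9 above it in NC+IL6 compared with NC, where 55.2% of all genes were below 0. By 1.5-fold or more 21 were lower, against 7.32% of all genes. In HC+IL6 compared with HC, 68 were below 0 and 7 above it, against 54% of all genes below 0, and 24 were lower by 1.5-fold or more, against 8.6%. Their medians were -0.41 and -0.43, and none was higher by 1.5-fold, where 8.51% and 7.68% of all genes were. At 2-fold, 5 were lower in normoxia, against 1.29% of all genes. They were Aspm, a protein of the spindle poles (log2 ratio -1.502), Cdca2, which recruits a phosphatase to chromosomes (-1.27), Wee1, the kinase that restrains CDK1 (-1.12), Gtse1 (-1.10) and Knl1, a scaffold of the kinetochore (-1.08). In hypoxia 4 were, against 1.98% of all genes, namely Oip5 (-1.33), Cenpp (-1.03), Aspm (-1.03) and Cdkn3 (-1.01). For hypoxia the medians of this list were -0.17 without IL6 and -0.16 with it. Of the 75 genes, 26 and 28 were above 0, against 54.8% and 54.2% of all genes. By 1.5-fold or more, 4 and 6 were lower (6.84% and 6.34% of all genes) and 0 and 2 were higher (13.3% and 12.5%). The latter were Sgo2a (0.98) and Cit (0.84), singled out after their values were seen. Troap, a cytoplasmic protein of the spindle, was the one gene past 2-fold there, at -1.06 without IL6, where 1.06% of all genes were lower by 2-fold. With both treatments, 10 of the 75 were lower by 2-fold or more, against 1.8% of all genes. They were led by Cenpm (-1.37), Ska1 (-1.295) and Aspm (-1.20), followed by Troap and Pmf1 (-1.18 each), Melk (-1.16), Oip5 (-1.15), Cdca2 (-1.14), Kif18b (-1.09) and Cenpp (-1.02). The list was chosen by role, with earlier results of these data known, and does not overlap with the 40 genes. It was read on the same 4 arrays and is not an independent check.

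Genes of DNA replication, which act earlier in the cycle, were also mostly lower with IL6, but their medians had a different balance. Of 40 on the list, 37 were above the floor in HC and NC, and all 37 were below 0 with hypoxia (45.2% of all genes). Their median was -0.44, and 7 were lower by 1.5-fold or more (6.84%). With IL6 in normoxia their median was -0.32, with 35 of 37 below 0 (55.2% of all genes) and 4 lower by 1.5-fold or more (7.32%). In HC+IL6 compared with NC+IL6 it was -0.35, with 30 of 38 below 0 (45.8%) and 7 lower by 1.5-fold or more (6.34%). In HC+IL6 compared with HC it was -0.26, with 32 of 38 below 0 (54%) and 0 lower by 1.5-fold or more (8.6%). For the mitotic genes the IL6 medians were the larger ones, at -0.51 and -0.50 against -0.14 and -0.21. With both treatments the medians of both lists were -0.63. With 1 array per condition this difference between the lists was not tested. Lower by 2-fold or more with both treatments (1.8% of all genes) were Tk1 (-1.33), Lig1 (-1.12), Mcm6 (-1.06), Dut (-1.03) and Rfc5 (-1.02).

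**Figure D5:**
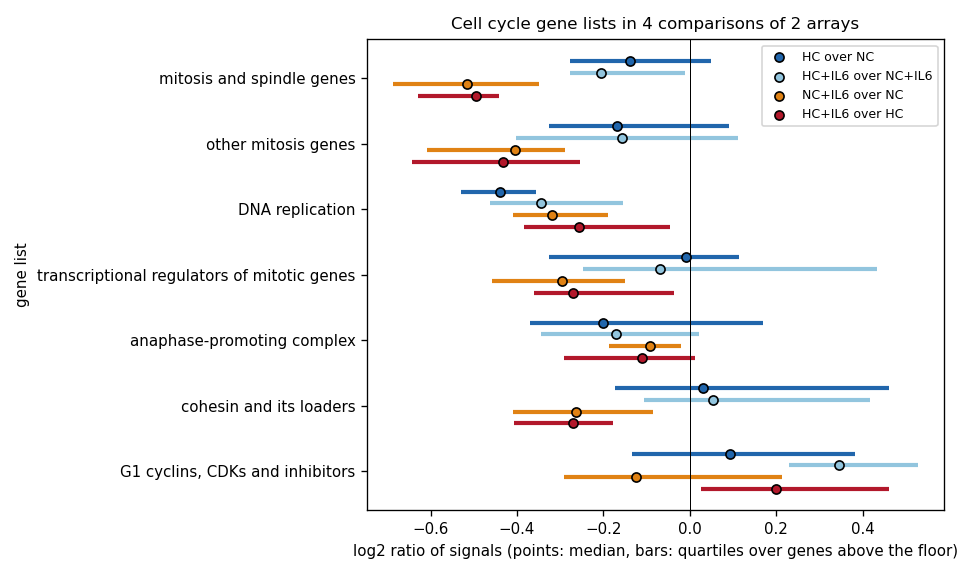
Median (points) and quartiles (bars) of log2 ratios (x axis) over the genes above the floor on 7 lists of cell cycle genes (y axis), for hypoxia without and with IL6 (dark and light blue) and IL6 in normoxia and hypoxia (orange and red). The IL6 medians of the mitosis and spindle genes are -0.51 and -0.50, and the hypoxia median without IL6 of the DNA replication genes is -0.44.

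Subunits and partners of machines that serve mitosis but are needed at other times too differed less with IL6. All 16 genes of the anaphase-promoting complex, the ubiquitin ligase that starts anaphase, and of its cofactors Fzr1 and Ube2s were above the floor. Their IL6 medians were -0.09 in normoxia and -0.11 in hypoxia, and 0 and 1 were lower by 1.5-fold or more (7.32% and 8.6% of all genes). All 12 genes of cohesin, the ring that holds sister chromatids together, its loaders and its regulators had medians of -0.26 and -0.27. Of these, 2 and 1 were lower by 1.5-fold or more. Nipbl, a cohesin loader, was at 1.02 in HC compared with NC. Of 23 transcriptional regulators of mitotic genes, 22 were above the floor in normoxia, with a median of -0.29 for IL6, and 21 in hypoxia, with -0.27. Each time 4 were lower by 1.5-fold or more (7.32% and 8.6% of all genes), and 1 was higher in normoxia (8.51%). That one was E2f4, a repressor in resting cells, whose 4 signals were under the floor except in NC+IL6, so that 0.63 is a ratio to the floor. E2f2, an activating E2F, was lowest in normoxia at -1.11. Mybl2 (B-Myb) had log2 signals of 8.96 (NC), 8.55 (NC+IL6), 8.20 (HC) and 7.95 (HC+IL6). Foxm1 had 7.79, 7.62, 7.91 and 8.10, and Lin54, the subunit of MuvB that contacts CHR, had 10.29, 10.43, 10.37 and 10.34. Mybl2 was lower with hypoxia and with IL6, while the 4 signals of Lin54 lay within 0.14 of the one in NC.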

How the data were processed

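RNA from RAW264.7 macrophages in NC, NC+IL6, HC and HC+IL6 was hybridized to 1 Affymetrix array each. The authors deposited log2 signals, made with MAS5 (version not given in the sources used here), of 45101 probe sets. In these values the mean signal, trimmed by 2% at each end, is 500.0 on every array. MAS5 detection calls were not used here. Depth does not apply to arrays, and their number limits the precision.

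From the deposited log2 signals, ratios were taken in Python (3.11.15) using pandas (2.3.3), scipy (1.17.1) and numpy (2.4.6), and plotted using matplotlib (3.10.9). GEO's platform table lists 35890 probe sets, of which 34958 carry 1 symbol, and 932 with several and 9211 not listed were left out. Each of 18194 genes had its brightest probe set by the mean of 4 arrays. It ended in _s_at or _x_at, which can match related transcripts, for 10 of the 40 mitotic genes. The floor was the 95th percentile of genes restricted to other tissues, of which 6 lay above it on at least 1 array. A ratio needed the brighter array above its floor, and a dimmer signal was raised to its floor. Thresholds were 2-fold and 1.5-fold. All 40 mitotic genes were to be named, and of other lists the genes past 2-fold and Foxm1, Mybl2, Lin54, E2f4, Cdkn1a and Ccnd1. The members and lists were chosen with earlier results of these data known. Alternatives were quantile normalization and cyclic loess (limma 3.58.1, R 4.3.3), equal medians, other floors, an added background and other probe sets. Calculations were tested on simulated data.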

Additional observations from a re-analysis of the deposited data

How the results depend on the processing

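The direction of the median log2 ratio of the mitotic genes was kept under every alternative in all 5 comparisons. It ranged from -0.23 to -0.10 for HC over NC, from -0.27 to -0.14 for HC+IL6 over NC+IL6, from -0.52 to -0.46 for NC+IL6 over NC, from -0.51 to -0.47 for HC+IL6 over HC and from -0.69 to -0.60 for HC+IL6 over NC. Counts at 2-fold are small and moved. The 1 gene higher in HC+IL6 over NC+IL6 was 0 after quantile normalization, cyclic loess, equal medians of probe sets above the floor and averaging of probe sets, and also among genes of mean log2 signal 10 or more. The 0 genes lower there were 1 after averaging and 1 without probe sets ending in _s_at or _x_at. In NC+IL6 over NC the 1 lower gene was 0 after averaging and 0 among bright genes, and in HC+IL6 over HC the 2 lower were 1 after averaging. With 1.5-fold in place of 2-fold, 1 gene was higher and 4 were lower in HC over NC, 3 were lower in HC+IL6 over NC+IL6, 17 in NC+IL6 over NC, 16 in HC+IL6 over HC and 24 in HC+IL6 over NC. The setting for bright genes and that without the _s_at and _x_at probe sets were chosen after the data were seen. Of 1960 log2 ratios of single mitotic genes under the alternatives, 35 moved by more than the SD between probe sets of a gene, all of them where other probe sets were used. No gene past 2-fold changed its direction. Without a floor, 2862 genes were higher and 2096 lower by 2-fold in HC than in NC, against 376 and 101, and the other comparisons moved likewise, while no mitotic gene was near the floor. No paired analysis was possible because each condition has 1 array. An additive fit of oxygen and IL6 over the 4 arrays was not run. With 1 array per condition none was left out.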

Other observations

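The cyclins, CDKs and CDK inhibitors of G1 were mixed. Cdkn1a, which encodes the CDK inhibitor p21, had log2 signals of 12.05 (NC), 12.46 (NC+IL6), 12.20 (HC) and 12.92 (HC+IL6). Cdkn2d, the CDK4 and CDK6 inhibitor p19, had 10.97, 11.49, 11.37 and 12.04, a 2.09-fold difference between the ends. Ccnd1, the G1 cyclin that rises with growth factors, had 13.08, 13.33, 13.46 and 13.68. In these 3 genes NC was the lowest array and HC+IL6 the highest, where 30 of 40 mitotic genes had their lowest signal in HC+IL6. The CDK inhibitor Cdkn2c (p18), named after its values were seen, had 11.09, 10.19, 11.05 and 10.42, with both IL6 arrays below both others. Over all G1 cyclins, CDKs and inhibitors, 12 of 16 were above the floor in HC+IL6 and HC, with a median log2 ratio of 0.20. Of these, 3 were higher and 1 lower by 1.5-fold or more (7.68% and 8.6% of all genes). In NC+IL6 and NC 13 were above the floor, with a median of -0.12, and 1 was lower by 1.5-fold or more (7.32%).

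Genes that p53 induces in growth arrest were mixed with IL6. In NC+IL6 compared with NC, 3 of 11 were higher by 2-fold or more (3.46% of all genes), Plk2 (log2 ratio 2.19), Gadd45a (1.26) and Sesn2 (1.19). Of these, Plk2 and Gadd45a were under the floor in NC, so that their ratios are lower bounds, taken to the floor. Zmat3 and Sesn1 had -0.91 and -0.88. In HC compared with NC, Trp53inp1 (1.66) and Btg2 (1.39) were higher by 2-fold or more, as were 3.94% of all genes. In HC+IL6 compared with HC, Btg2 had -1.51 and Sesn1 -1.12, and in HC+IL6 compared with NC+IL6, Plk2 had -1.39, Trp53inp1 1.72 and Zmat3 1.26.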
